A study of Homo sapiens with 6 samples.

Results

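Complement is a cascade of serum and cell-surface proteins that marks targets for removal, and 9 of its genes are described here in U251 glioblastoma cells with and without CRISPR targeting of NUAK2. They are the classical pathway proteases C1R and C1S, the central component C3, the alternative pathway protease CFB, the anaphylatoxin receptor C5AR1, the C1 inhibitor SERPING1, and the membrane regulators CD46, CD55 and CD59. The 9 rows were found in the count table by NCBI gene identifier, among 28395 genes in all. They were selected on this same comparison of WT with NUAK2-CR cells, so their levels and fold changes are given as a description with no test.

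In the classical pathway, C1q bound to a surface activates C1r, which cleaves C1s, and C1s then cleaves C4 and C2 to assemble an enzyme that splits C3. The alternative pathway amplifies C3 cleavage through factor B, and C5a, released further down the cascade, signals through the receptor encoded by C5AR1. Host cells limit the cascade with secreted C1 inhibitor and with membrane proteins that dismantle the C3-splitting enzymes or block the membrane attack complex. Liver and myeloid cells are the best known sources of complement proteins, and glial cells and gliomas also make several of them.

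U251MG is an established human glioblastoma astrocytoma line grown in serum-containing medium. The series holds 6 bulk RNA-sequencing libraries, 3 from unedited WT cells and 3 from cells of the same line labelled NUAK2-CR, in which the kinase gene NUAK2 was targeted with CRISPR-Cas9. The edited cells carried a guide to NUAK2 in a pair of lentiviral vectors that also encode Cas9 and a fluorescent protein, were sorted as double-positive single cells and grown as clones. The labels name no clone and do not say whether the 3 NUAK2-CR libraries came from 1 clone, and no vector is stated for the WT cells, so an effect of cloning or of the vectors cannot be told apart from that of NUAK2. Separate cultures are not named either, so p-values measure the spread between these libraries, which may be technical.

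Each library held between 29648445 and 55574081 counts on genes, with the highest total in WT replicate 1. A gene was tested where it passed the default expression filter of edgeR, which left 14873 genes, and normalized counts put all libraries on the scale of their mean effective size, 37507951. Differences are given as the log2 ratio of NUAK2-CR over WT from the edgeR fit (the log2 fold change) with its standard error (SE). A gene is said to be higher or lower after a test where edgeR's quasi-likelihood test gave a Benjamini-Hochberg adjusted p under 0.05 over all 14873 genes. By that rule 26.3% of all tested genes were higher in NUAK2-CR and 28.2% were lower, 54.5% in all, and the median log2 ratio over all of them was -0.01. NUAK2 itself, on chromosome 1, had 1654 ± 243 (SD, n = 3) normalized counts in WT against 869.5 ± 83.2 (SD, n = 3) in NUAK2-CR, giving a log2 ratio of -0.93 ± 0.11 (SE, adjusted p = 1.8e-05 by edgeR). The transcript was therefore lower but still present in the edited cells, and the counts do not show whether it encodes a functional kinase.

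The promoter sequences of 3 of the 9 genes are shown first, since the levels below are read beside them. RefSeq promoter entries matched 6 of the 9 genes, in 11 windows of 250 bases before an annotated start, and had none for C1S, C3 or SERPING1. Exact letters of 6 motifs were searched on both strands: TTCNNNGAA (the GAS element of STAT factors), GAAANNGAA (the core of the interferon-stimulated response element, ISRE), GGANTTTCC (NF-kB), TTGCNNCAA (C/EBP), TGANTCA (AP-1) and GGAATG (TEAD). The windows below are given 5′ to 3′ on the coding strand of GRCh38.p14, in lower case with matches in capitals. C1R lies on the minus strand and is shown because its level differed strongly between the groups, CFB because it holds both interferon-related motifs while the gene had almost no counts, and C5AR1 because it differed as well and holds none of the motifs.
C1R, chr12:7092446-7092695, minus strand: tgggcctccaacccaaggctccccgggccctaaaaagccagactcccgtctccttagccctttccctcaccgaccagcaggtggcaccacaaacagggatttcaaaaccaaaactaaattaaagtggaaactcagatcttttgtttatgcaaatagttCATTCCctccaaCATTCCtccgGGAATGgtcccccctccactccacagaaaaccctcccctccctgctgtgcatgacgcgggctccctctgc
CFB, chr6:31945845-31946094, plus strand: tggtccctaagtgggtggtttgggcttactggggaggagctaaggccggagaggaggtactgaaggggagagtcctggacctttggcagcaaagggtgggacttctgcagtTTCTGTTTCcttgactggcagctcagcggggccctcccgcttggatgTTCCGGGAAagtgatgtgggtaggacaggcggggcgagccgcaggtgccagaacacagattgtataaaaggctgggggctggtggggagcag
C5AR1, chr19:47309611-47309860, plus strand: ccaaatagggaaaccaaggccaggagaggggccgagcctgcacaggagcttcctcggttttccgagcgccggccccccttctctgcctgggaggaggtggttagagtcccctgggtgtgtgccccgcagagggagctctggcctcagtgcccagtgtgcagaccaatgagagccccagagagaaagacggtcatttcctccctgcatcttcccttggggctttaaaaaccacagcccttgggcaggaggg

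The C1R window held 3 matches to the TEAD letters, the DNA word bound by the partners of YAP and TAZ. They began 92, 80 and 70 bases before the start (positions -92, -80 and -70). Of 35116 promoter windows of the same length, 11.9% held at least 1 such match and 0.0826%, or 29 windows, held 3 or more. A window before another annotated C1R start held no TEAD match and a single GAS match. The CFB window held an ISRE match at -139 and a GAS match at -92, against shares of 6.88% and 6.57% of all windows. In CD59, the same GAS match lay in 2 overlapping windows. Another CD59 window held 2 AP-1 matches, against 0.402% of windows with 2 or more and 6.57% with at least 1. The windows of CD46, CD55 and C5AR1 held none of the 6. The NF-kB letters, in 1.45% of windows, were found in no window of the 9 genes. The letters labelled C/EBP, in 1.62% of windows, were found in none of them either. Those letters hold a base more in the middle than the C/EBP palindrome, so a perfect palindrome is not counted. Neither their absence nor their share therefore describes C/EBP sites, and no conclusion is drawn on them. None of the matches in the printed windows overlap. Matches are descriptions of the letters and not evidence of binding.

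C1R and C1S were the genes with the largest differences among the 9. C1R (gene 715, chr12:7080219-7092445) encodes the protease that activates C1s, and it had 462, 606 and 659 normalized counts in WT replicates 1, 2 and 3, against 4263, 4286 and 4394 in the NUAK2-CR replicates in the same order. Every NUAK2-CR library was far above every WT library, and the NUAK2-CR libraries lay close together. The means were 576 ± 102 (SD, n = 3) and 4314 ± 69.8 (SD, n = 3), giving a log2 ratio of 2.91 ± 0.11 (SE), or 7.54-fold. C1S (gene 716, chr12:7060718-7071032), the protease that cleaves C4 and C2, had 156, 286 and 249 normalized counts in WT against 3279.9, 3279 and 3643 in NUAK2-CR. WT replicate 1 was the lowest of all, and again the groups were far apart. Its means were 230.3 ± 66.8 (SD, n = 3) and 3400.5 ± 209.6 (SD, n = 3), giving a log2 ratio of 3.91 ± 0.17 (SE), or 15.0-fold. Because the RNA came from bulk cultures, more cells with these transcripts and more transcript per cell cannot be told apart.

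The proteases act in a fixed complex, and the balance of their transcripts also differed between the groups. Within each library the ratio of C1S to C1R counts was 0.338, 0.471 and 0.378 in WT against 0.769, 0.765 and 0.829 in NUAK2-CR. The means were 0.396 ± 0.0685 (SD, n = 3) and 0.788 ± 0.0358 (SD, n = 3), and no NUAK2-CR library came near the WT values. A ratio within a library does not depend on the scaling between libraries.

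C1 inhibitor, the serpin that blocks both proteases, was not higher in NUAK2-CR. SERPING1 (gene 710, chr11:57597685-57614848) had 22, 24 and 22 raw counts in WT against 6, 10 and 7 in NUAK2-CR. These counts are few, but the groups did not overlap and NUAK2-CR was the lower one. After scaling the means were 20.5 ± 5.08 (SD, n = 3) and 9.12 ± 2.55 (SD, n = 3), giving a log2 ratio of -1.14 ± 0.46 (SE). The ratio of C1R to SERPING1 counts within a library was 28.6 ± 2.80 (SD, n = 3) in WT against 495.5 ± 122 (SD, n = 3) in NUAK2-CR. For C1S to SERPING1 the corresponding ratios were 11.2 ± 0.995 (SD, n = 3) and 392 ± 106 (SD, n = 3).

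Of C3 and factor B, which form the alternative pathway enzyme, C3 showed no such difference and factor B had too few counts to compare. C3 (gene 718, chr19:6677704-6720650), whose cleavage all pathways share, had 323, 376 and 360 normalized counts in WT against 342, 310 and 308 in NUAK2-CR. The groups overlapped, with means of 353 ± 27.4 (SD, n = 3) and 320.0 ± 18.7 (SD, n = 3) and a log2 ratio of -0.14 ± 0.12 (SE). CFB (gene 629, chr6:31946095-31952084), the protease subunit of the alternative pathway enzyme, had 3, 16 and 0 raw counts in WT against 0, 7 and 6 in NUAK2-CR. It was the one gene of the 9 that did not pass the expression filter, and no fold change is given. A count of 0 in a library allows up to 3 counts, and this floor covers counting error only. Of the 20 tested genes nearest to CFB, 1 was called lower and 2 higher, against 28.2% and 26.3% of all tested genes. Loss of reads from this stretch of chromosome 6 in mapping was not tested. The few counts therefore do not show that CFB was silent.

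C5AR1 (gene 728, chr19:47307477-47322066), the receptor for the inflammatory fragment C5a, was the third gene with a large difference. It had 40.5, 59.8 and 38.7 normalized counts in WT against 321, 328 and 244 in NUAK2-CR. All NUAK2-CR libraries were above all WT libraries, and NUAK2-CR replicate 3 was the lowest of the edited ones. The means were 46.3 ± 11.7 (SD, n = 3) and 298 ± 46.8 (SD, n = 3), giving a log2 ratio of 2.68 ± 0.22 (SE), or 6.43-fold.

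The membrane regulators varied little by comparison. CD46 (gene 4179, chr1:207752038-207795516), a cofactor for the destruction of C3b and C4b, had 3462, 5589 and 5436 normalized counts in WT against 4515, 4099 and 4594 in NUAK2-CR. WT replicate 1 lay below every other library and the other WT replicates above all of them, so the groups overlapped. The means were 4829 ± 1186 (SD, n = 3) and 4403 ± 266 (SD, n = 3), with a log2 ratio of -0.13 ± 0.14 (SE) that became -0.32 without WT replicate 1. CD55 (gene 1604, chr1:207321678-207360966), which speeds the decay of the C3-splitting enzymes, had 350.1, 453 and 502 normalized counts in WT against 291, 314 and 363 in NUAK2-CR. WT replicate 1 fell inside the NUAK2-CR range while the other WT replicates were above it. Its means were 435 ± 77.6 (SD, n = 3) and 323 ± 37.1 (SD, n = 3), giving a log2 ratio of -0.43 ± 0.15 (SE). CD59 (gene 966, chr11:33703010-33736479), which blocks assembly of the membrane attack complex, had 9190.5, 11510 and 11691 normalized counts in WT against 9895.5, 10936 and 11017 in NUAK2-CR. The groups overlapped, and the log2 ratio of CD59 was -0.02 ± 0.09 (SE).

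**Figure D1:**
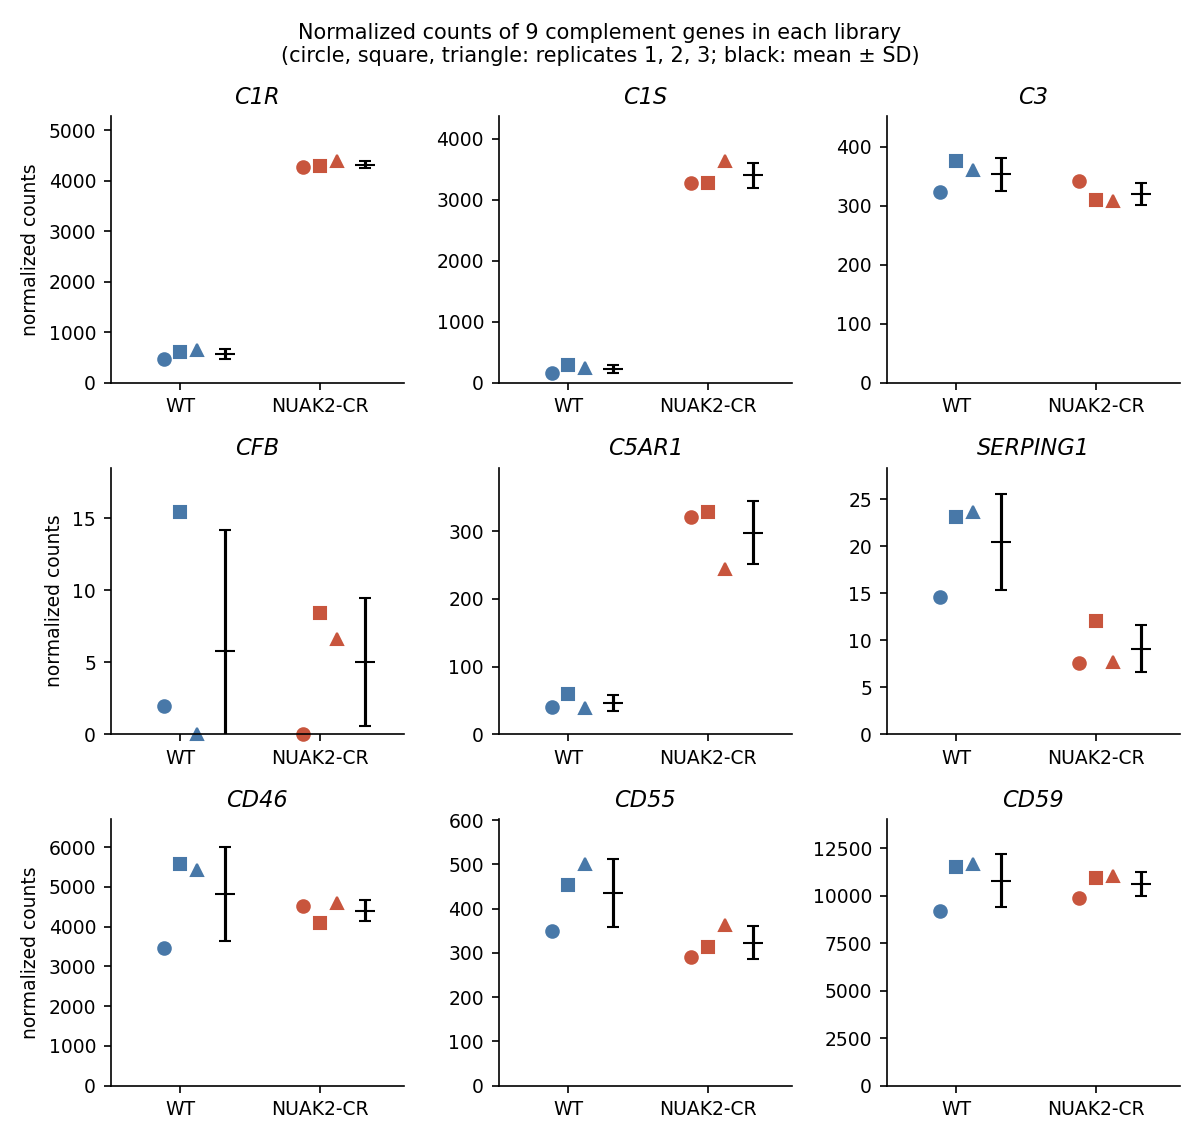
Normalized counts (vertical axes, each from 0) of the 9 complement genes in 3 WT and 3 NUAK2-CR libraries, with a symbol for each replicate and the mean ± SD in black; the lower SD bar of CFB in WT is cut at 0. C1R, C1S and C5AR1 stand far above WT in every NUAK2-CR library, while C3, CD46, CD55 and CD59 overlap between the groups.

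Of the 9 genes, 8 passed the filter, and 3 of these passed edgeR's threshold as higher (C1R, C1S and C5AR1, against 26.3% of all genes) and 1 as lower (CD55, against 28.2%). Since this contrast chose the genes, nothing is read from those counts. The normalized counts of the groups did not overlap for C1R, C1S, C5AR1 and SERPING1, against 61.4% of all tested genes. The call of CD55 was lost when replicate 2 or 3 of WT, or replicate 1 or 2 of NUAK2-CR, was left out, with log2 ratios between -0.56 and -0.31 over all settings tried. Without WT replicate 1, CD46 and SERPING1 were also called lower, which made 3 such genes. WT replicate 1 had the lowest WT value in 7 of the 8 genes that passed the filter and in 37.7% of all tested genes.

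Levels of different genes were compared per kilobase of transcript, in normalized counts. In WT the order from the top was CD46, CD59, C1R, CD55, C1S, C3, C5AR1, SERPING1 and CFB. CD46 at 1455 ± 357 (SD, n = 3) and CD59 at 1428 ± 184 (SD, n = 3) were not separated beyond their spread, and they exceeded 86.4% and 86.2% of the 14419 tested genes that have a transcript length. C1R followed at 231 ± 40.9 (SD, n = 3) and CD55 at 168 ± 30.0 (SD, n = 3). C1S at 85.9 ± 24.9 (SD, n = 3) and C3 at 67.5 ± 5.24 (SD, n = 3) were within their spread of each other. C5AR1 reached 19.9 ± 5.03 (SD, n = 3) and SERPING1 11.2 ± 2.78 (SD, n = 3), low in the distribution of all genes.

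In NUAK2-CR cells the proteases and the membrane regulators CD46 and CD59 held the top of the order. The order was C1R, CD59, CD46, C1S, C5AR1, CD55, C3, SERPING1 and CFB. C1R, at 1734 ± 28.0 (SD, n = 3) per kilobase of transcript, exceeded 89.4% of tested genes, compared with 48.1% in WT. C1S, at 1268 ± 78.2 (SD, n = 3), exceeded 85.1% compared with 30.1% in WT. It lay within its spread of CD46 at 1326 ± 80.1 (SD, n = 3), which in turn lay within its spread of CD59 at 1404 ± 82.7 (SD, n = 3). C5AR1 at 128 ± 20.2 (SD, n = 3) and CD55 at 125 ± 14.3 (SD, n = 3) were not separated either. Per kilobase of coding sequence, CD59, whose annotated transcript is mostly noncoding, came first in both groups. By that measure CD46 in NUAK2-CR, at 3893 ± 235 (SD, n = 3), was above C1R at 2040 ± 33.0 (SD, n = 3). C1S was lower still, at 1647.5 ± 102 (SD, n = 3).

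**Figure D2:**
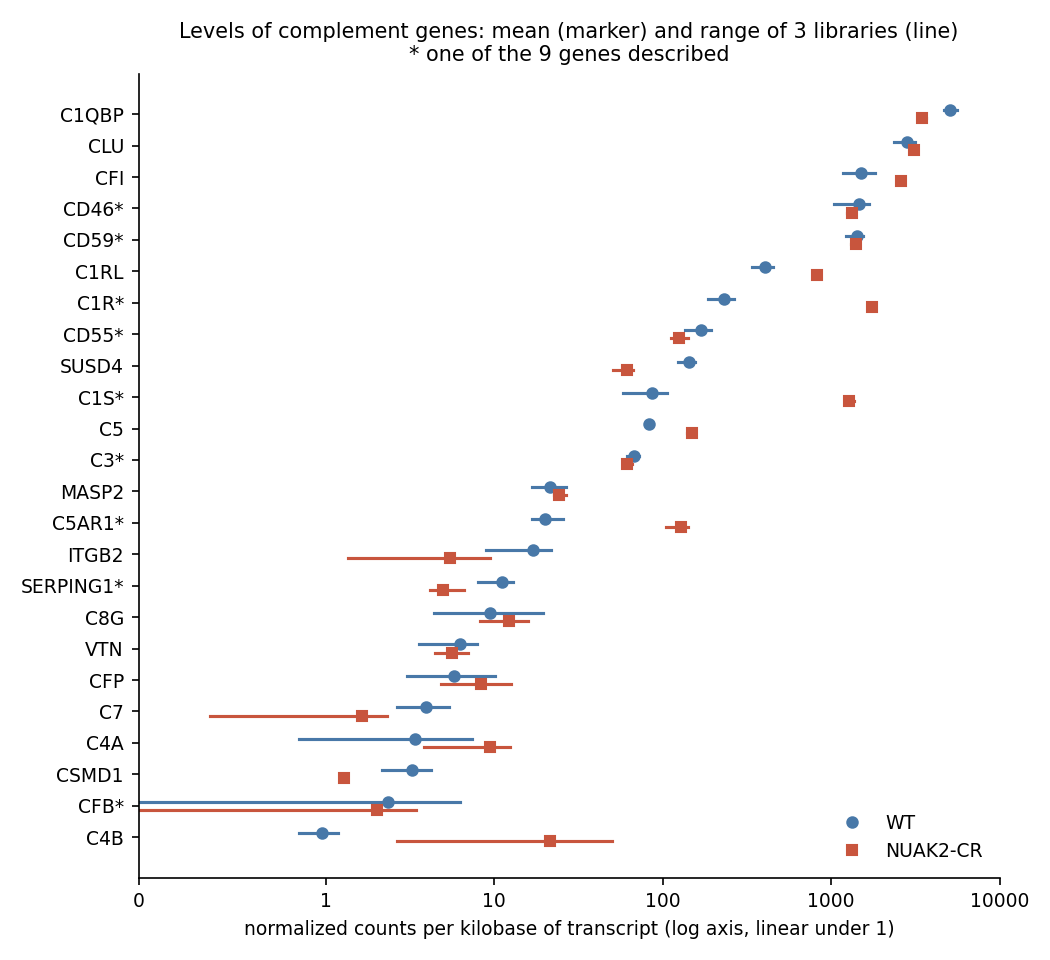
Normalized counts per kilobase of transcript (horizontal log axis, linear under 1) for the 9 genes, marked by asterisks, and 15 further complement genes in order of the WT level, with the mean of 3 libraries as a marker and their range as a line. C1R and C1S move from 231 and 85.9 in WT to 1734 and 1268 in NUAK2-CR, where C1S is within the spread of CD46 and C1R is above CD46 and CD59.

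The rest of the complement system was read from 47 further genes, 17 without any count in the 6 libraries and 16 that passed the filter. Of those 16, 5 were higher in NUAK2-CR and 4 were lower, and 7 did not pass the threshold. The median log2 ratio of the 16 was 0.30, against -0.01 over all tested genes, and 9 of 16 called is close to the background of 54.5%. Both groups lacked counts for C1QA, C1QB and C1QC, the chains of C1q that recruits C1r and C1s, and for C2, which C1s cleaves. C2 lies next to CFB on chromosome 6, where loss of reads in mapping was not tested. Its lack of counts therefore does not show that it was not transcribed. Others with no count included MBL2, FCN1, CFD, C8A, C8B, CR1, CR2, VSIG4 and C4BPB. Genes with some counts, too few to pass the filter, included MASP1, FCN2, FCN3, COLEC10, COLEC11, C6, C9, C3AR1, C5AR2, ITGAM, ITGAX, CD93 and C4BPA.

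Among the activation genes, 5 passed the filter and 2 were higher. C1RL, a protease related to C1R and next to it on chromosome 12, had 1134, 1514 and 1424 normalized counts in WT against 2698, 2735 and 2812 in NUAK2-CR. Its means were 1357 ± 199 (SD, n = 3) and 2748 ± 57.8 (SD, n = 3), giving a log2 ratio of 1.02 ± 0.10 (SE, adjusted p = 2.56e-06 by edgeR). C1RL overlaps an antisense gene and the strand setting of the counting is not given in the sources used here, so its counts are uncertain. C4A and C4B, near-identical genes for the C4 protein that C1s cleaves, had few and uneven counts. C4B had 7, 5 and 6 raw counts in WT against 51, 225 and 13 in NUAK2-CR, giving a log2 ratio of 4.45 ± 0.89 (SE, adjusted p = 0.00106), which became 2.87 without NUAK2-CR replicate 2. C4A had 7, 11 and 37 in WT against 53, 55 and 19 in NUAK2-CR, a log2 ratio of 1.56 (adjusted p = 0.0609). With WT replicate 1 left out its log2 ratio was 1.04, and with WT replicate 3 left out it was 2.79. It passed the threshold without replicate 3 of either group (adjusted p = 0.00392 for WT and 0.0264 for NUAK2-CR), under DESeq2 (adjusted p = 0.0231), with a replicate block (adjusted p = 0.041) and with a minimum of 1 count in all (adjusted p = 0.00757). Reads cannot be divided safely between them, and whether reads shared by both genes were left out of the counts was not tested. Their sum is therefore not a safe measure of C4 either. At 14, 16 and 43 raw counts in WT against 104, 280 and 32 in NUAK2-CR, the sum overlapped between the groups. The lectin pathway protease MASP2 had a log2 ratio of 0.17 (adjusted p = 0.627) and properdin, CFP, which stabilizes the alternative pathway enzyme, 0.45 (adjusted p = 0.50).

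In the terminal pathway C5, the source of the C5a fragment that binds C5AR1, had 447, 462 and 449 normalized counts in WT against 844, 851 and 761 in NUAK2-CR. The groups lay well apart, at 453 ± 8.11 (SD, n = 3) and 819 ± 50.4 (SD, n = 3), giving a log2 ratio of 0.85 ± 0.09 (SE, adjusted p = 8.21e-06 by edgeR). C7 and C8G, parts of the membrane attack complex, did not pass the threshold at log2 ratios of -1.29 (adjusted p = 0.0696) and 0.44 (adjusted p = 0.603). Of the receptors, ITGB2, a chain of the complement receptors of leukocytes, and C1QBP, a mostly mitochondrial protein that also binds C1q, were lower. C1QBP stood at 5951 ± 536 (SD, n = 3) against 4052.5 ± 221 (SD, n = 3), a log2 ratio of -0.55 (adjusted p = 7.8e-05). ITGB2 had 38, 58 and 57 raw counts in WT against 3, 22 and 14 in NUAK2-CR, a log2 ratio of -1.60 (adjusted p = 0.0237). That call was lost without replicate 2 or 3 of WT, or replicate 1 or 3 of NUAK2-CR, where the adjusted p reached 0.0859.

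Soluble and other regulators moved in both directions. CFI, the protease that degrades C3b and C4b with CD46 as cofactor, had 2337, 3576 and 3025 normalized counts in WT against 5148, 5145 and 5169.7 in NUAK2-CR. All NUAK2-CR values exceeded those of WT, with a log2 ratio of 0.79 ± 0.12 (SE, adjusted p = 0.000118 by edgeR). SUSD4 and CSMD1, membrane proteins with complement control repeats, were lower. SUSD4 stood at 428 ± 49.98 (SD, n = 3) against 183 ± 26.9 (SD, n = 3), a log2 ratio of -1.22 (adjusted p = 2.72e-05), and CSMD1 had -1.35 (adjusted p = 0.00659). CLU, an abundant secreted inhibitor of the terminal pathway, had 7791 ± 1130 (SD, n = 3) and 8569 ± 234 (SD, n = 3) normalized counts, with a log2 ratio of 0.14 (adjusted p = 0.239). VTN, another such inhibitor, had -0.17 (adjusted p = 0.809).

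**Figure D3:**
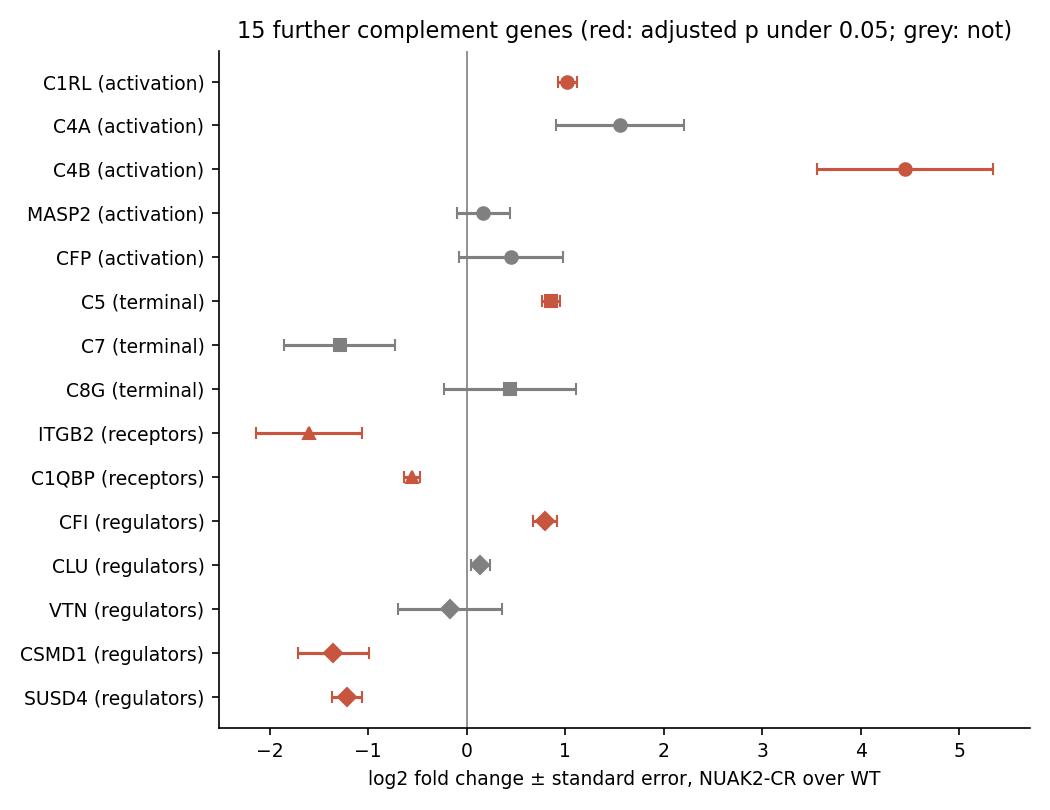
Log2 fold change of NUAK2-CR over WT with its standard error (horizontal axis) for 15 complement genes outside the 9 that passed the filter, by role. Red markers passed edgeR's adjusted p under 0.05, 4 of them to the right of 0 and 4 to the left.

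Because C1R, C1S and C1RL are neighbours, each gene was set beside its surroundings on the chromosome. The genes described here were left out of every set of nearest genes, so C1S is not counted among the neighbours of C1R. The gap between C1S and C1R is 9.187 kb and that between C1R and C1RL is 2.109 kb. The 20 tested genes nearest to C1R and C1S, within 0.24 Mb, had a median log2 ratio of 0.25, and all 20 were below both proteases. Genes on the C1R side were also above 0, with log2 ratios of 1.02 for C1RL, 0.84 for its antisense gene C1RL-AS1 and 1.36 for RBP5, whereas values on the C1S side lay on both sides of 0. C1RL was less different than C1R, and the ratio of C1RL to C1R counts within a library was 2.37 ± 0.183 (SD, n = 3) in WT against 0.637 ± 0.0036 (SD, n = 3) in NUAK2-CR. C5AR1 also stood above all of its 20 nearest genes, whose median was 0.07. SERPING1 stood below all of its own 20, whose median was 0.20, and the 20 nearest to C3 had a median of 0.11.

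The genes around the membrane regulators were mostly lower in NUAK2-CR. CD55 and CD46 lie 2.02 and 2.45 Mb from NUAK2 on chromosome 1, and the median log2 ratios of their 20 nearest genes were -0.58 and -0.76. In each set 14 of 20 were called lower and 0 higher, against 28.2% and 26.3% of all tested genes. The sets of CD55 and CD46 hold mostly the same genes, and both share several with the 20 nearest to NUAK2. They are therefore not separate cases. The 20 genes nearest to NUAK2 had a median of -0.82, which became -0.41 with the 10 nearest and -0.44 with the 50 nearest, beside its own value of -0.93. CD46 was above 18 of its 20 neighbours, and CD55 was above 13 of 20. CD59, on chromosome 11, was above 17 of 20 neighbours with a median of -0.72, of which 15 were called lower and 1 higher. These medians rest on few genes and, with the 10 nearest genes, became -0.33 for CD46 and CD55 and -0.42 for CD59.

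**Figure D4:**
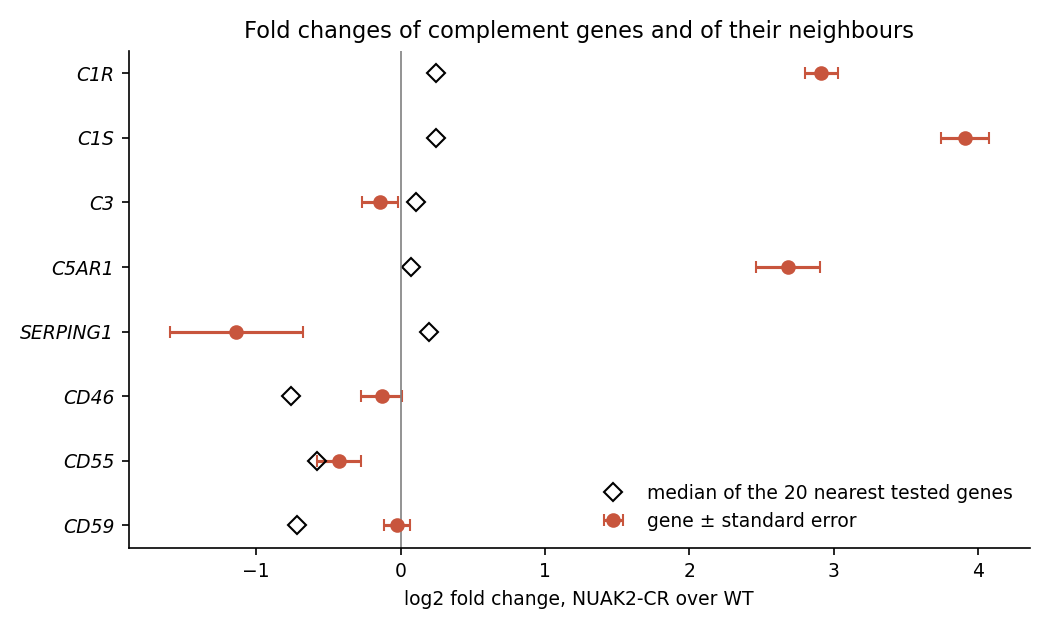
Log2 fold change of NUAK2-CR over WT (horizontal axis) of the 8 genes that passed the filter, with its standard error (red), and the median of the 20 nearest tested genes, the described genes left out (open diamonds). C1R, C1S and C5AR1 lie far to the right of their neighbours, while CD46 and CD59 lie to the right of neighbours whose medians are -0.76 and -0.72.

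**Figure D5:**
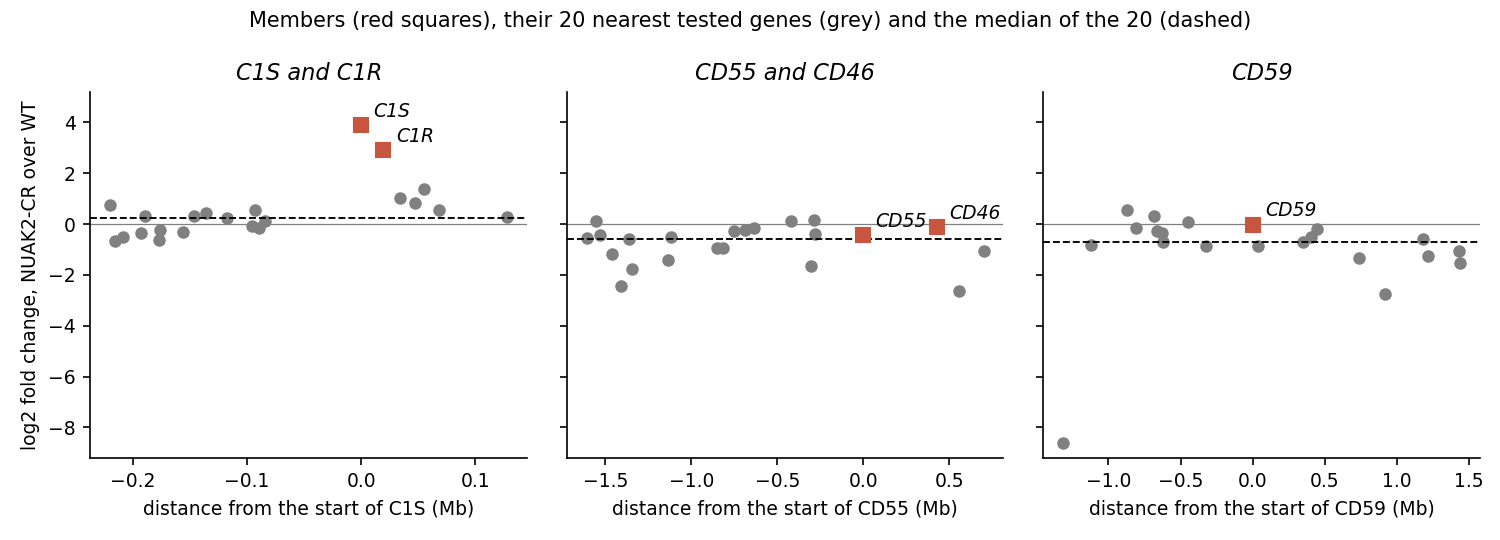
Log2 fold change of NUAK2-CR over WT (vertical axis) against distance from the lower coordinate of C1S, CD55 and CD59 in megabases, with the described genes as red squares, their 20 nearest tested genes in grey and the median of those as a dashed line. C1S and C1R stand above every neighbour, and most points around CD55, CD46 and CD59 lie under 0.

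CD55 and CD59 are held on the cell surface by a glycosylphosphatidylinositol (GPI) anchor, so the genes that build it were read as well. Of 30 such genes 28 passed the filter, 10 were higher and 4 were lower, and the median log2 ratio was 0.10. The share called, 14 of 28, is close to the background of 54.5%. PGAP4 and PGAP1, which remodel the anchor, had log2 ratios of 0.82 (adjusted p = 4.29e-06 by edgeR) and 0.79 (adjusted p = 7e-05). PIGS and PIGK, subunits of the transamidase that attaches the anchor to proteins, had -0.86 (adjusted p = 1.01e-06) and -0.50 (adjusted p = 0.00858).

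Complement genes are induced by interferon gamma, IL6-type cytokines, IL1 and TNF, and 27 factors, receptors and kinases of these routes were read next. All 27 passed the filter, and NUAK2-CR had 15 of them higher and 5 lower, or 20 called against the background of 54.5% of all genes, at a median log2 ratio of 0.39 against -0.01 over all tested genes. SOCS1, a feedback inhibitor of JAK kinases rather than an activator, had 60.7 ± 4.81 (SD, n = 3) normalized counts in WT against 284 ± 8.87 (SD, n = 3) in NUAK2-CR, a log2 ratio of 2.22 (adjusted p = 3.41e-07 by edgeR). RELB, an NF-kB subunit, followed at 1.15 (adjusted p = 0.00012). The largest decreases were those of IL6R, the IL6 receptor, at -1.28 (adjusted p = 4.16e-06), and STAT3, its main transcription factor, at -0.43 (adjusted p = 0.000129).

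IRF1, a transcription factor induced by interferon, was higher at 0.39 (adjusted p = 0.00511 by edgeR). NFKB1 and RELA did not pass the threshold, at 0.11 (adjusted p = 0.226) and 0.13 (adjusted p = 0.117). CEBPB and CEBPD, the C/EBP factors of the acute phase response, were higher at 0.52 (adjusted p = 0.000141) and 0.75 (adjusted p = 0.000352).

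For the 3 genes with the largest differences, the tested genes with the most similar profile over the 6 libraries were found by the root mean square difference of log2 normalized counts, each centred on its own mean. For C1R these were NPNT at 0.0856 and APCDD1 at 0.0977, for C1S ARHGAP20 at 0.130 and ACKR1 at 0.187, and for C5AR1 EMX2OS at 0.117 and FBLN5 at 0.164, in log2 units among 14872 genes compared. The measure covers only 6 libraries in 2 groups, so a like difference between the groups gives much of the likeness.

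Cell type markers were read for the cells that usually make complement. Of 11 myeloid markers, AIF1, CX3CR1, TYROBP, P2RY12 and CD163 had no count in any library, and the sum of all 11 was 866 to 991 normalized counts in WT against 248 to 294 in NUAK2-CR. Nearly all of that sum came from CD68 and CSF1R, the 2 myeloid markers that passed the filter, which were lower at log2 ratios of -1.59 (adjusted p = 3.08e-07 by edgeR) and -2.46 (adjusted p = 4.94e-07). The other 9 had at most 24 raw counts in any library. AIF1 lies in the same stretch of chromosome 6 as CFB, where loss of reads was not tested. Of 10 hepatocyte markers, APOC3, TTR, AHSG, FGA and FGB had no count, and the sum of the 10, 201 to 331 in WT against 137 to 305 in NUAK2-CR, was nearly all SERPINA1, at 198 to 320.3 in WT against 123 to 303 in NUAK2-CR (log2 ratio -0.20, adjusted p = 0.573). The sum of 6 endothelial markers was 252 to 339 in WT against 186 to 218 in NUAK2-CR, but its members differed in direction: of 5 that passed the filter, KDR was lower, at a log2 ratio of -1.24 (adjusted p = 0.000124 by edgeR), and 2 were higher. VWF had a log2 ratio of 1.69 (adjusted p = 0.00135), and PECAM1 (adjusted p = 0.000549) had 2, 0 and 0 raw counts in WT against 12, 14 and 14 in NUAK2-CR. Of 10 astroglial and glioma markers 9 passed the filter and 7 were lower in NUAK2-CR, with none higher. For these and the other marker counts, the shares over all tested genes were 28.2% lower and 26.3% higher. The sum of the 10 astroglial and glioma markers was 335652 to 373068 in WT against 149117 to 156029 in NUAK2-CR. Both groups carried the glial markers of the labelled line, GFAP among them at 88323 ± 5494 (SD, n = 3) in WT against 14984 ± 1129 (SD, n = 3) in NUAK2-CR. AQP4, another astrocyte marker, was nearly absent, with 2 raw counts in each WT library and 0 in each NUAK2-CR library. The part of the marker difference in the complement values was not tested.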

How the data were processed

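Bulk RNA-sequencing of U251MG cells covered 3 WT and 3 NUAK2-CR libraries, grouped by their genotype labels. Total RNA was isolated with TRIzol and libraries were made with a stranded mRNA kit. Reads were trimmed by the authors (Trimmomatic), mapped against hg38 (HISAT2) and assigned to genes (featureCounts), each at default parameters, and the deposited values are raw counts per gene. The annotation and strand setting are not given in the sources used here. The counts were checked to be whole numbers that sum to between 29648445 and 55574081 per library. Symbols and positions came from RefSeq GRCh38.p14 (27745 of 28395 identifiers matched, 650 did not) and transcript lengths from GENCODE, which covered 14419 of the tested genes.

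Fold changes and adjusted p-values came from edgeR 4.0.16 in R 4.3.3, with filterByExpr, TMM scaling, glmQLFit and the quasi-likelihood F test, a prior count of 0.125 and Benjamini-Hochberg adjustment over 14873 genes. The paper's own analysis used DESeq2. The standard error is the absolute log2 fold change divided by the square root of F. The common biological coefficient of variation was 0.101. The pipeline was tested on simulated data. The members and lists were chosen with earlier results of these data known. Named genes were the 9 members, further complement genes that passed the filter (a few individual genes are not reported here, though counted), the 2 largest changes in each direction and key factors of the other lists, and the 2 most similar genes of 3 members. RBP5, C1RL-AS1 and individual cell type markers were named after their values were seen. Alternatives were DESeq2 1.42.0, RLE and library-size scaling, a minimum of 1 count in all, a minimum of 10 counts in each library, a prior count of 2, fold thresholds, a replicate block, 10 or 50 nearest genes, coding length, and each library left out. Tables and figures were made in Python 3.11.15 (pandas 2.3.3, matplotlib 3.10.9).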

Additional observations from a re-analysis of the deposited data

How the results depend on the processing

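The log2 ratios of C1R, C1S and C5AR1, whose direction the selection of the genes had fixed, ranged over all settings from 2.78 to 3.02, 3.67 to 4.10 and 2.58 to 2.90. The number of the 9 genes called lower went from 1 to between 0 and 3 with a library left out. Replicate numbers did not pair the libraries, with correlations of same-numbered deviations of 0.0353, -0.0206 and 0.041, and a replicate block gave 6 further complement genes higher and 5 lower in place of 5 and 4. With at least 10 counts in every library, 3 further complement genes were higher and 3 lower, of 8 tested. Over all genes 3761 were then higher and 3854 lower, of 13607 tested. With an absolute log2 fold change also over 1, 3 further complement genes were higher, and ITGB2, CSMD1 and SUSD4 were lower. Over all genes 1027 were then higher and 1035 lower, in place of 3912 and 4195. Over 2, 2 further complement genes were higher and 0 lower, and over all genes 281 were higher and 421 lower. With the 10 and 50 nearest genes, the neighbour medians were 0.41 and 0.0801 for C1R and for C1S, 0.29 and 0.0049 for C3, -0.33 and -0.39 for CD46, -0.33 and -0.42 for CD55, and -0.42 and -0.55 for CD59. With the 10 nearest genes the median was 0.039 for SERPING1, and for CFB it turned from -0.09 to 0.41. The cause of these shifts was not tested beyond the smaller or larger number of genes. Per coding length, 4 of the 9 genes changed place in the WT order and 3 in the NUAK2-CR order. CFB, SERPING1, C4A, C4B, CFP, C7, C8G and VTN had too few counts for a small difference to be detectable. For CFB, C4A and C4B, on chromosome 6, whether the few counts come from depth or from reads lost in mapping was not tested.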
